A study of Homo sapiens with 12 samples.

Results

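The tripartite motif (TRIM) genes were read as a family in 2 human papillary thyroid cancer cell lines. Members were all genes of the expression table whose symbol is TRIM followed by a number and at most 1 further letter; this took 74 of 61806 genes, after 1 name ending in P, as pseudogene symbols do, was left out. The established lines TPC-1 and K1 were transfected with a negative control siRNA (NC, genotype label WT) or with an siRNA against TRIM35 (genotype label TRIM35 knockdown), and were harvested 24 h later. Each of the 4 groups had 3 RNA-seq libraries, 12 in all, and all groups carry a transfected siRNA. Levels are FPKM, which scales counts by exon length and library total. Differences in RNA composition between libraries remain, so FPKM compare between libraries only approximately. The tests used a further scaling factor per library (TMM), from 0.936 in TPC-1 siRNA replicate 2 to 1.08 in K1 siRNA replicate 1. The title of TPC-1 control replicate 3 gives another line name, while its other labels and its column give TPC-1. For TRIM55, TRIM58 and TRIM61, the members that separate the lines most, its FPKM of 88.46, 9.34 and 7.34 lay with the other TPC-1 libraries. No label says whether replicates were separate cultures; the p-values therefore describe the variation among the 12 libraries as sequenced, and part or all of it may be technical.

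TRIM proteins typically have a RING finger, 1 or more B-boxes and a coiled coil, though some members lack the RING finger. Most act as E3 ubiquitin ligases. The RING finger receives an E2 enzyme loaded with ubiquitin, and the domain at the C-terminal end chooses the substrate. The C-terminal domain sorts the family into classes. The PRY-SPRY class holds many restriction factors and regulators of innate immunity. The PHD-bromodomain class includes readers of histone tails. The NHL class binds RNA and cytoskeletal partners, and the COS classes bind microtubules. Several members are induced by interferon. TRIM24, TRIM27 and TRIM33 are known in thyroid cancer as fusion partners of the RET kinase.

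Library totals ran from 16705044 to 22928861 counts, and the family held between 0.154% and 0.189% of them. As a check of the labelled tissue, the thyroid transcription factors PAX8, FOXE1 and HHEX were present in control libraries, with mean FPKM of 19.6, 1.49 and 5.13 in TPC-1 and 115, 12.9 and 3.33 in K1. The differentiation genes TG, TSHR and SLC5A5 were at or under 0.19 FPKM in every library, and NKX2-1 was at 0. Of 6 epithelial markers 5 were tested, and 3 were higher in K1 controls: KRT8 at 1.95 FPKM in TPC-1 against 27.1 in K1, KRT19 at 0.037 against 2.31 and EPCAM at 0.19 against 0.45. KRT18 (41.0 and 34.8) and KRT7 (0.843 and 0.68) were not called, and CDH1 did not exceed 0.02 in any library. Markers of other cells were low but higher in K1: the 5 leukocyte markers summed to 0.31 to 0.37 FPKM in TPC-1 controls and 4.19 to 5.61 in K1 controls, nearly all from CD14 (0.087 and 4.42), with PTPRC at 0.057 and 0.163 and CD3E at 0 in K1 controls. The 5 fibroblast markers summed to at most 1.11 and the 4 endothelial markers to at most 1.70 in controls. Their part in the differences between the lines was not tested. In bulk RNA, fewer cells that express a gene and less RNA per cell cannot be told apart.

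Sequence was looked at first for the interferon-inducible members, the group in which TRIM22, the member with the largest increase in K1, belongs. Interferon activates factors that bind a repeated GAAA core, and the motif GAAANNGAAA was searched on both strands in the 250 bases before each RefSeq transcription start (build GRCh38.p14). At least 1 promoter window, 77 in all, was on hand for 58 of the 74 members, and for 16, TRIM22 and TRIM35 among them, none was used here. The motif was in 3.02% of 35116 windows of that length over all genes. It was in a window of 5 of the 9 interferon-inducible members that had one, and of 4 of the 49 other members. These counts are per gene, and a gene can have several windows, so they do not compare directly with the share of windows. Of the 5 inducible members with the motif, 3 were lower in K1 and 2 were not called. Of those with a window but no motif, TRIM56 was higher, TRIM21 and TRIM38 were lower and TRIM25 was not called. A relation of the motif to these differences was not tested. The 5 windows with the motif are printed below. They read 5′ to 3′ in the direction of the gene, with the motif or its reverse complement in capitals; in TRIM26 2 matches overlap.
TRIM5 promoter, chr11:5685075-5685324, minus strand: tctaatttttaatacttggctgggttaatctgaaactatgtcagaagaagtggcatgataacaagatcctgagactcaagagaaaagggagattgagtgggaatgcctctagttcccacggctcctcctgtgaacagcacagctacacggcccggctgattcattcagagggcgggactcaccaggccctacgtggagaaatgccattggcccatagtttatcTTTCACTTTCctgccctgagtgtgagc
TRIM14 promoter, chr9:98119223-98119472, minus strand: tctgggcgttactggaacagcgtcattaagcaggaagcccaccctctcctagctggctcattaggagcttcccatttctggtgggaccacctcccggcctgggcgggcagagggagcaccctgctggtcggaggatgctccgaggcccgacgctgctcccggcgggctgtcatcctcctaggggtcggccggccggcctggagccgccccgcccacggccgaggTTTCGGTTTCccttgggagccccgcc
TRIM26 promoter, chr6:30213407-30213656, minus strand: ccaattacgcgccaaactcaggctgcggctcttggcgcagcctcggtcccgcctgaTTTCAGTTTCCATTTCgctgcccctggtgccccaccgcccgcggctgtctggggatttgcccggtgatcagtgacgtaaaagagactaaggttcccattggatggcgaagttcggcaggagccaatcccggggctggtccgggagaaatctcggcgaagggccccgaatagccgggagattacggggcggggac
TRIM34 promoter, chr11:5624751-5625000, plus strand: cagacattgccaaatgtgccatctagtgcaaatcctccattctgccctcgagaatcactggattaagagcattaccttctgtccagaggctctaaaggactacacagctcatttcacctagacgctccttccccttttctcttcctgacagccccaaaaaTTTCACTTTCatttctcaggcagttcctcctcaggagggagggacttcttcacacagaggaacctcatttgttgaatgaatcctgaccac
TRIM69 promoter, chr15:44736278-44736527, plus strand: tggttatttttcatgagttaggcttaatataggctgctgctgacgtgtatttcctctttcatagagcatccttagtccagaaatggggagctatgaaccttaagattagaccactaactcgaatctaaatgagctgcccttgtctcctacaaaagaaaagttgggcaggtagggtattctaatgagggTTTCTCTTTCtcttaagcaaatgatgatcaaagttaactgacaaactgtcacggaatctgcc
In the TRIM5 window the motif begins at position -27 from the start, in TRIM14 at -26, in TRIM69 at -62 and in TRIM34 at -90. A match describes these letters only; binding was not measured.

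The windows of TRIM58 and TRIM61 are shown for another reason: both genes were read at several FPKM in TPC-1 and at or near 0 in K1. CG dinucleotides, the sites of promoter methylation, are in capitals. TRIM58 has 12 and TRIM61 has 8, against a median of 11 over all windows; methylation was not measured.
TRIM58 promoter, chr1:247856937-247857186, plus strand: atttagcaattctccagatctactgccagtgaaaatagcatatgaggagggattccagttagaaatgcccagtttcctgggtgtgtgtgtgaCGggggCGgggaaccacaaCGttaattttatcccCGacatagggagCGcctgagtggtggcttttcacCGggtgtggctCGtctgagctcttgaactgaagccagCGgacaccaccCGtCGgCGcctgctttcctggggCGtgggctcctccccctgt
TRIM61 promoter, chr4:164977658-164977907, minus strand: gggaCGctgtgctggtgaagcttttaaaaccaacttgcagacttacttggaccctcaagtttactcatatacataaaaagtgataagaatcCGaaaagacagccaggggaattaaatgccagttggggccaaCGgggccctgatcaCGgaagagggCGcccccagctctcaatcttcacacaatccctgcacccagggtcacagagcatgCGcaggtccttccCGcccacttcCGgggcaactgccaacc

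TRIM35, the siRNA target, is a PRY-SPRY member on chromosome 8 (hg38, 27284886 to 27311272) reported to bind the pyruvate kinase PKM2 and to ubiquitinate antiviral signalling proteins. In TPC-1 its FPKM was 2.86, 2.91 and 3.06 under control siRNA and 2.34, 2.56 and 2.58 under TRIM35 siRNA. In K1 the values were 1.51, 1.85 and 1.47, and 1.20, 1.49 and 1.53. The TPC-1 groups did not overlap and the K1 groups did. Relative to control, TRIM35 was at 84.8% in TPC-1 (95% interval 66.8 to 107.5, edgeR) and at 87.9% in K1 (68.5 to 112.9). Neither value passed the test, and the exact two-sided permutation test gave p = 0.1 in TPC-1, the smallest that 3 against 3 libraries allow, and p = 0.5 in K1. Over both lines the level was 86.3% of control (72.6 to 102.6, unadjusted p = 0.0898, adjusted p = 1.00, edgeR). The target also differed between the lines: K1 controls held 51.4% of the TPC-1 level (40.3 to 65.5). That gap between lines is wider than the gap between siRNA groups in either line. Among members by mean FPKM in controls, TRIM35 took place 27 in TPC-1 and place 38 in K1, so the siRNA was aimed at a member of middle to low level.

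The family was unevenly read. In these lines 17 members had no count in any library: TRIM10, TRIM15, TRIM40, TRIM42, TRIM43, TRIM43B, TRIM48, TRIM49, TRIM49B, TRIM49C, TRIM51, TRIM51G, TRIM60, TRIM64, TRIM64B, TRIM64C and TRIM77. Of the 20 members on chromosome 11, which carries several arrays of near-identical copies, 10 were among them. A further 4 had 1 to 3 counts over all libraries, which is at or under the floor of 3 counts: TRIM50, TRIM63, the muscle RING gene, TRIM75 and TRIM29. Another 6 had more counts but too few for the test, TRIM31, TRIM72, TRIM54, TRIM74, TRIM17 and TRIM67, with 7 to 72 counts in all. The remaining 47 entered the fit over 17447 genes, and 44 members were counted in all 12 libraries. A mean of at least 1 FPKM in a control group was reached by 42 members, in both lines by 34, in TPC-1 alone by 3 (TRIM7, TRIM58 and TRIM61) and in K1 alone by 5 (TRIM3, TRIM22, TRIM52, TRIM62 and TRIM66).

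Each line had its own leading member. In TPC-1 controls TRIM55 stood first at 89.7 ± 3.30 FPKM (SD, n = 3), followed by TRIM28 at 30.8 ± 2.26, TRIM16L at 13.4 ± 2.14 and TRIM32 at 10.9 ± 0.71. In K1 controls TRIM37 stood first at 38.95 ± 3.21, followed by TRIM28 at 25.3 ± 1.30, TRIM8 at 21.4 ± 2.80 and TRIM4 at 13.7 ± 0.95. TRIM55 was at place 39 in K1 and TRIM37 at place 6 in TPC-1. TRIM28, the corepressor KAP1 recruited by KRAB zinc finger proteins, kept the second place in both. The gaps between these first 3 places exceeded the SDs in both lines, whereas from the fourth place on neighbours in the order often lay within each other's SD, as TRIM26 at 9.80 ± 0.13 and TRIM37 at 9.60 ± 1.37 did in TPC-1. Over the 47 tested members the rank correlation of mean FPKM between the control lines was 0.434 (Spearman, across genes, as a description), against 0.993 between control and TRIM35 siRNA within each line.

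**Figure D1:**
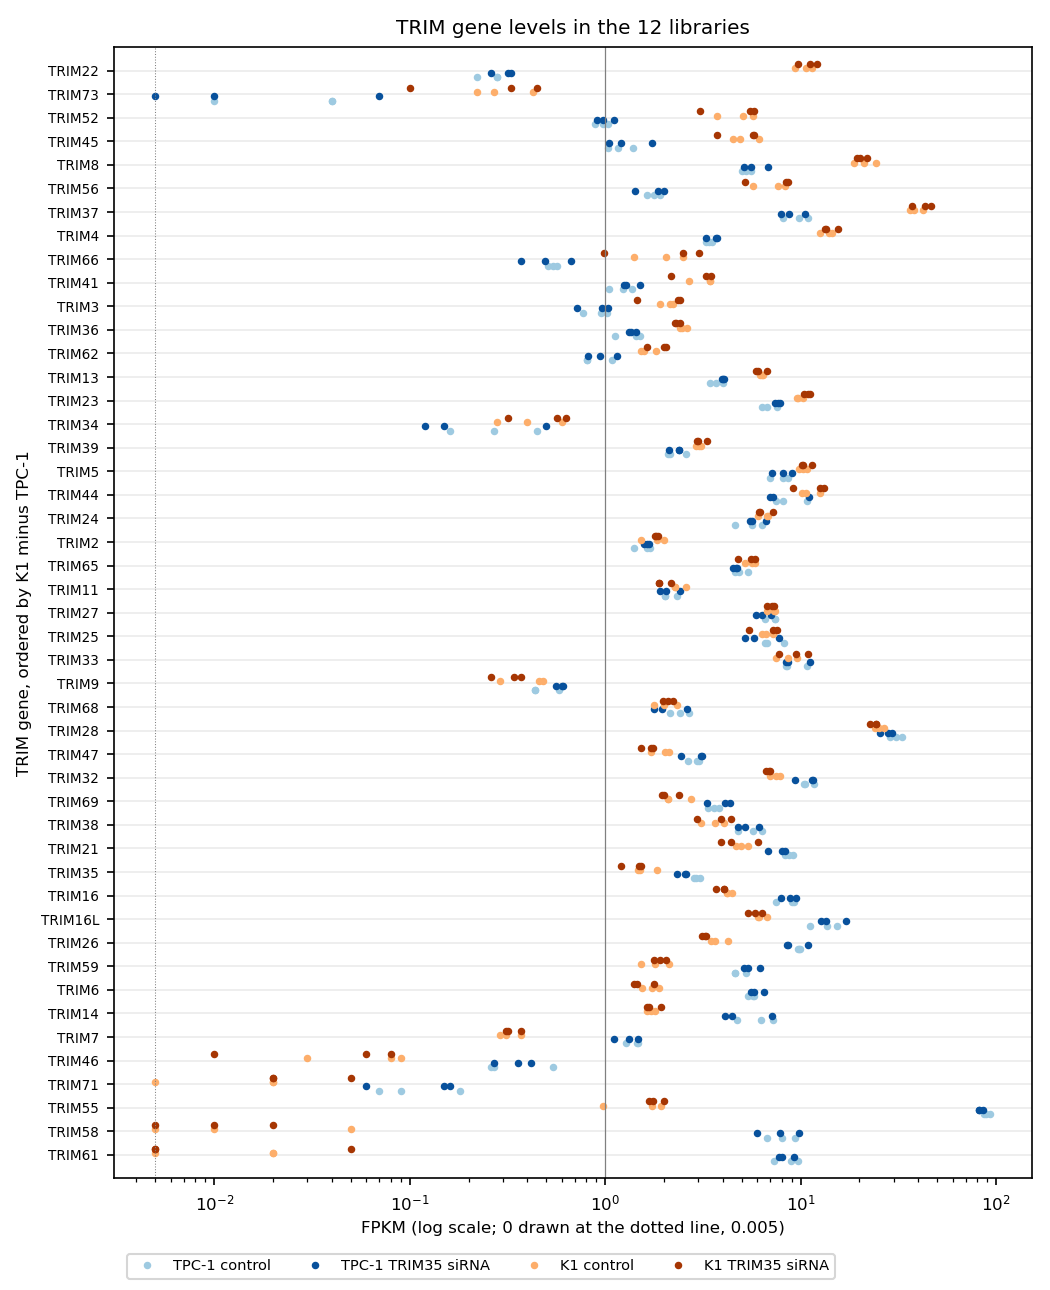
FPKM of the 47 tested TRIM genes in each of the 12 libraries on a log axis, ordered by the K1 minus TPC-1 difference; each point is 1 library, colours mark the 4 groups, the vertical line marks 1 FPKM and values of 0 are drawn at the dotted line. The control and siRNA points of a line lie together for nearly every gene, while the lines separate at the top (TRIM22) and the bottom (TRIM61, TRIM58, TRIM55).

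The lines differed in most members. Between control libraries 34 of the 47 tested members (72.3%) were called at an adjusted p under 0.05 in edgeR, beside 67.9% of all genes tested. K1 was higher in 15, beside 35.8% of all genes in that direction, and lower in 19, beside 32.1%. Called differences over 2-fold were found in 23 members, beside 43.5% of all genes. The members' median log2 difference was -0.10 and their median absolute difference 0.96, beside 0.06 and 0.88 over all genes. The family as a whole was thus about as divided between the lines as other genes were. Under TRIM35 siRNA, in libraries that the control comparison does not share, 35 members (74.5%) were called beside 68.3% of all genes, 15 higher (beside 35.9%) and 20 lower (beside 32.4%) in K1. All 34 members called among controls were called again with the same sign, which is 97.1% of the calls under siRNA. The matching share over all genes is not given here, so this repeat does not set the family apart. Both comparisons also used 1 estimate of the spread, fitted over all 12 libraries.

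The only member called under TRIM35 siRNA alone was TRIM9, a brain-expressed COS-FN3-SPRY ligase of axon guidance. Its FPKM was 0.58, 0.44 and 0.44 in TPC-1 controls, 0.61, 0.56 and 0.60 in TPC-1 siRNA libraries, 0.29, 0.48 and 0.46 in K1 controls, and 0.26, 0.37 and 0.34 in K1 siRNA libraries. The K1 minus TPC-1 difference was -0.35 on the log2 scale in controls (adjusted p = 0.176, edgeR) and -0.96 under siRNA (adjusted p = 0.00147). The test of the difference between these values gave -0.61 with SE 0.32, unadjusted p = 0.0743 and adjusted p = 1.00 in edgeR, so they were not shown to differ.

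**Figure D2:**
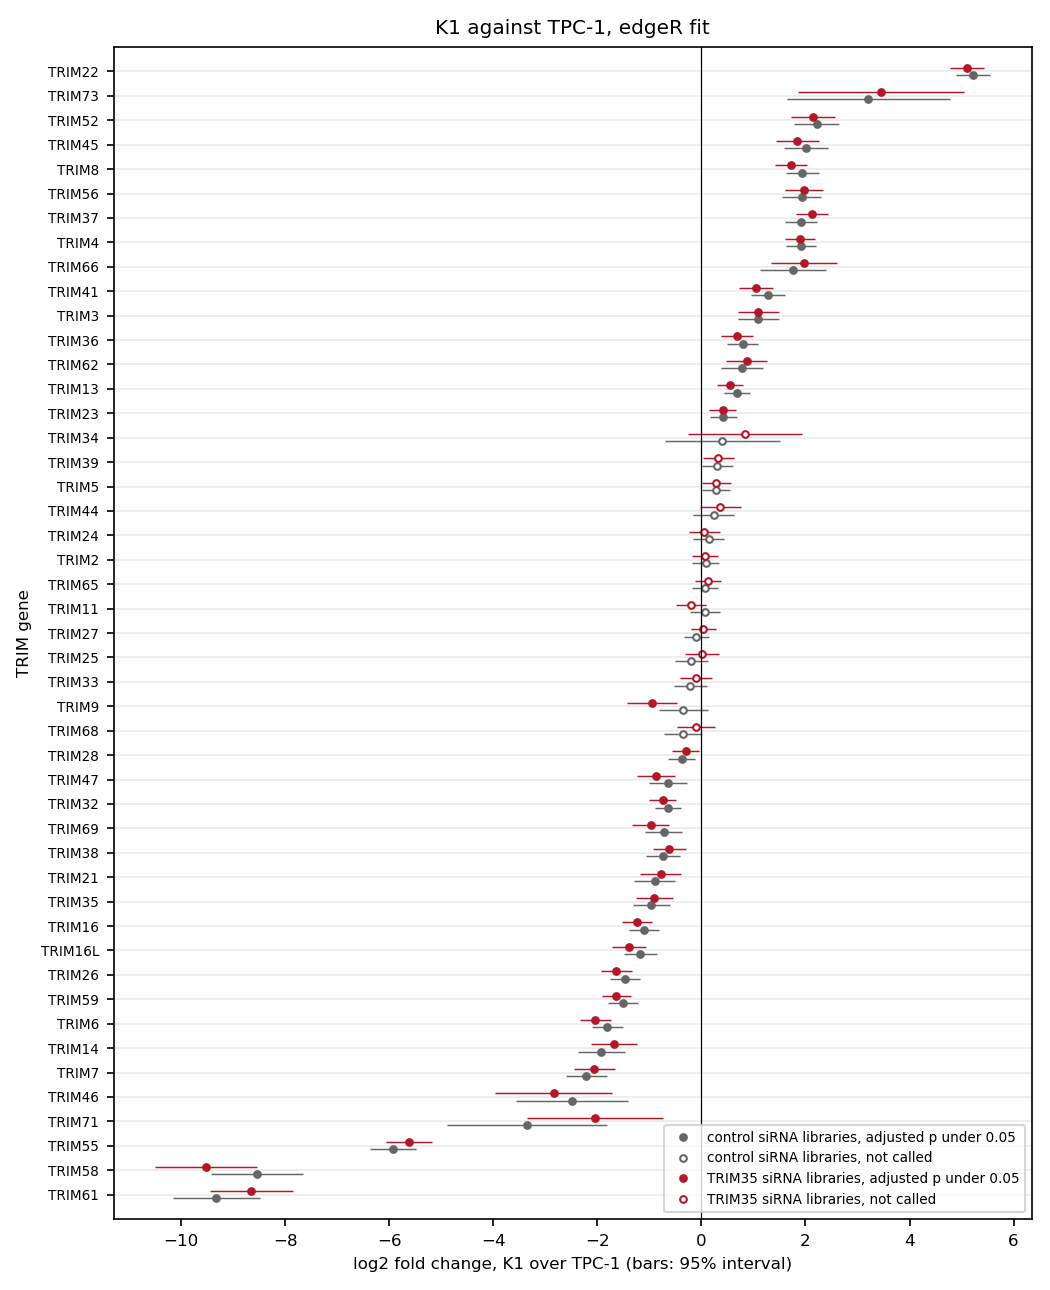
Log2 fold change of K1 over TPC-1 for the 47 tested TRIM genes in edgeR, in control siRNA libraries (grey) and TRIM35 siRNA libraries (red), with 95% intervals; filled points passed an adjusted p under 0.05. Both sets of libraries place the genes in nearly the same order, from TRIM61 at the bottom to TRIM22 at 5.23 in controls; fitted values of TRIM61 and TRIM58 rest on 0 to 6 counts per K1 library.

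Among members with at least 1 FPKM in TPC-1 controls, those furthest below TPC-1 in K1 were TRIM61, TRIM58, TRIM55 and TRIM7. TRIM61, a RING and B-box gene without a C-terminal domain (chr4:164954446-164977668), read 9.70, 8.95 and 7.34 FPKM in TPC-1 controls and 0.02, 0.02 and 0.00 in K1 controls. Under TRIM35 siRNA the values were 9.27, 8.08 and 7.72 against 0.00, 0.05 and 0.00. Counts summed to 1272 against 2 in controls, a ratio per total count of 723 (95% exact Poisson interval 200 to 5976, counting error only), and to 1373 against 3 under siRNA, a ratio of 419 (143 to 2035). All 3 of the latter counts were in K1 siRNA replicate 2, and without it the fitted log2 difference under siRNA, which is no bound at a count of 0, went from -8.65 to -11.80. In both sets of libraries TRIM61 was read almost entirely in TPC-1, at the level of TRIM21 or TRIM16 there. Reads of FAM218A, a gene on the opposite strand within TRIM61 with 217 counts in all, could not be told apart without knowing the strandedness of the counts.

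TRIM58, a PRY-SPRY ligase of late erythropoiesis that targets dynein (chr1:247857187-247880138), read 6.70, 8.05 and 9.34 FPKM in TPC-1 controls and 0.05, 0.01 and 0.00 in K1 controls. The siRNA libraries read 6.0, 7.87 and 9.83 against 0.00, 0.02 and 0.01. The counts were 2268 against 7 in controls, a ratio of 368 (179 to 917), and 2552 against 3 under siRNA, a ratio of 779 (266 to 3781). Of the 7 K1 control counts 6 were in replicate 1, and without that library the fitted log2 difference went from -8.54 to -10.45; without K1 siRNA replicate 2 it went from -9.52 to -10.27 under siRNA. The size of the ratio thus rests on single K1 libraries, its direction does not. Every TPC-1 library lay far above every K1 library. The next coding gene, the olfactory receptor gene OR2W3, had 23 to 49 counts per TPC-1 control library (1.32 to 2.89 FPKM) and 0 in all K1 libraries, so the neighbour was read in TPC-1 alone as well. The coding gene on the other side, OR11L1, was at 0 in controls of both lines.

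TRIM55, also called MuRF2, belongs to the muscle RING ligases that sit on microtubules and the sarcomere (chromosome 8, 66126896 to 66175485). It read 87.20, 93.44 and 88.46 FPKM in TPC-1 controls and 1.73, 1.94 and 0.97 in K1 controls. Under siRNA it read 82.06, 85.62 and 81.66 against 1.76, 1.99 and 1.68. The groups are far apart, and K1 control replicate 3 is the lowest. The log2 difference was -5.93 (SE 0.21, adjusted p = 1.34e-12, edgeR) in controls and -5.61 (SE 0.21) under siRNA. The muscle relatives did not share this: TRIM63 had 1 count in all and TRIM54 had 18. The coding neighbours of TRIM55, DNAJC5B and CRH, were at or below 0.02 FPKM in controls of both lines.

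TRIM7, a PRY-SPRY ligase that binds glycogenin (chr5:181193924-181205293), read 1.46, 1.47 and 1.28 FPKM in TPC-1 controls and 0.31, 0.37 and 0.29 in K1 controls, and 1.47, 1.33 and 1.11 against 0.37, 0.31 and 0.32 under siRNA. K1 was lower in all 6 of its libraries, by a log2 difference of -2.21 (SE 0.18) in controls. TRIM7 stands at the end of chromosome 5 beside TRIM41 (chr5:181222499-181235808) and close to TRIM52 (chr5:181254077-181261150). These neighbours went the other way, with log2 differences of 1.28 (SE 0.16) and 2.22 (SE 0.20).

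Among members higher in K1, TRIM22 led. It is a PRY-SPRY restriction factor of retroviruses and influenza virus, on chromosome 11 (chr11:5689610-5737089). It read 0.22, 0.28 and 0.28 FPKM in TPC-1 controls and 9.31, 10.63 and 11.39 in K1 controls. With TRIM35 siRNA it read 0.33, 0.32 and 0.26 against 12.19, 11.16 and 9.75. The difference was 5.23 on the log2 scale (SE 0.15, adjusted p = 1.71e-13, edgeR), or 37.4-fold, in controls and 5.11 (SE 0.15) under siRNA. No TPC-1 library came near a K1 library. The other members of its cluster did not rise to a similar extent. TRIM6, which makes unanchored ubiquitin chains in interferon signalling (chr11:5596109-5612958), was lower in K1 by a log2 difference of -1.81 (SE 0.14). TRIM34 was not called (0.40, SE 0.52), and its interval, from -0.71 to 1.52, does not settle its direction. TRIM5 was not called in edgeR either (0.28, SE 0.13). Its FPKM was nevertheless higher in every K1 control library than in any TPC-1 control library, and DESeq2 and limma called it higher. TRIM5, the retroviral capsid sensor, overlaps TRIM22 on the opposite strand, and its mean FPKM in controls was 7.90 ± 0.85 in TPC-1 and 10.3 ± 0.50 in K1 (SD, n = 3).

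TRIM52, TRIM45 and TRIM8 completed the 4 largest increases among members with at least 1 FPKM. TRIM52, a RING and B-box protein without a C-terminal domain, read 0.98, 0.89 and 1.04 FPKM in TPC-1 controls and 3.75, 5.08 and 5.70 in K1 controls, and 0.91, 0.98 and 1.11 against 5.79, 5.49 and 3.04 under siRNA. TRIM45, a filamin-domain member reported to restrain MAPK-driven transcription, read 1.39, 1.16 and 1.04 against 4.52, 4.91 and 6.10 in controls, and 1.73, 1.20 and 1.05 against 5.71, 5.80 and 3.75 under siRNA. In FPKM both genes varied more among K1 libraries, where their levels were higher, than among TPC-1 libraries. On the log2 scale this held for TRIM52 but not for TRIM45. No K1 library of either gene fell to a TPC-1 value. TRIM8, a regulator of NF-kB and STAT signalling, read 5.56, 5.23 and 5.0 against 24.38, 21.16 and 18.80 in controls, and 6.81, 5.55 and 5.16 against 19.49, 20.06 and 21.75 under siRNA. The log2 differences in controls were 2.22 (SE 0.20) for TRIM52, 2.01 (SE 0.20) for TRIM45 and 1.94 (SE 0.15) for TRIM8.

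**Figure D3:**
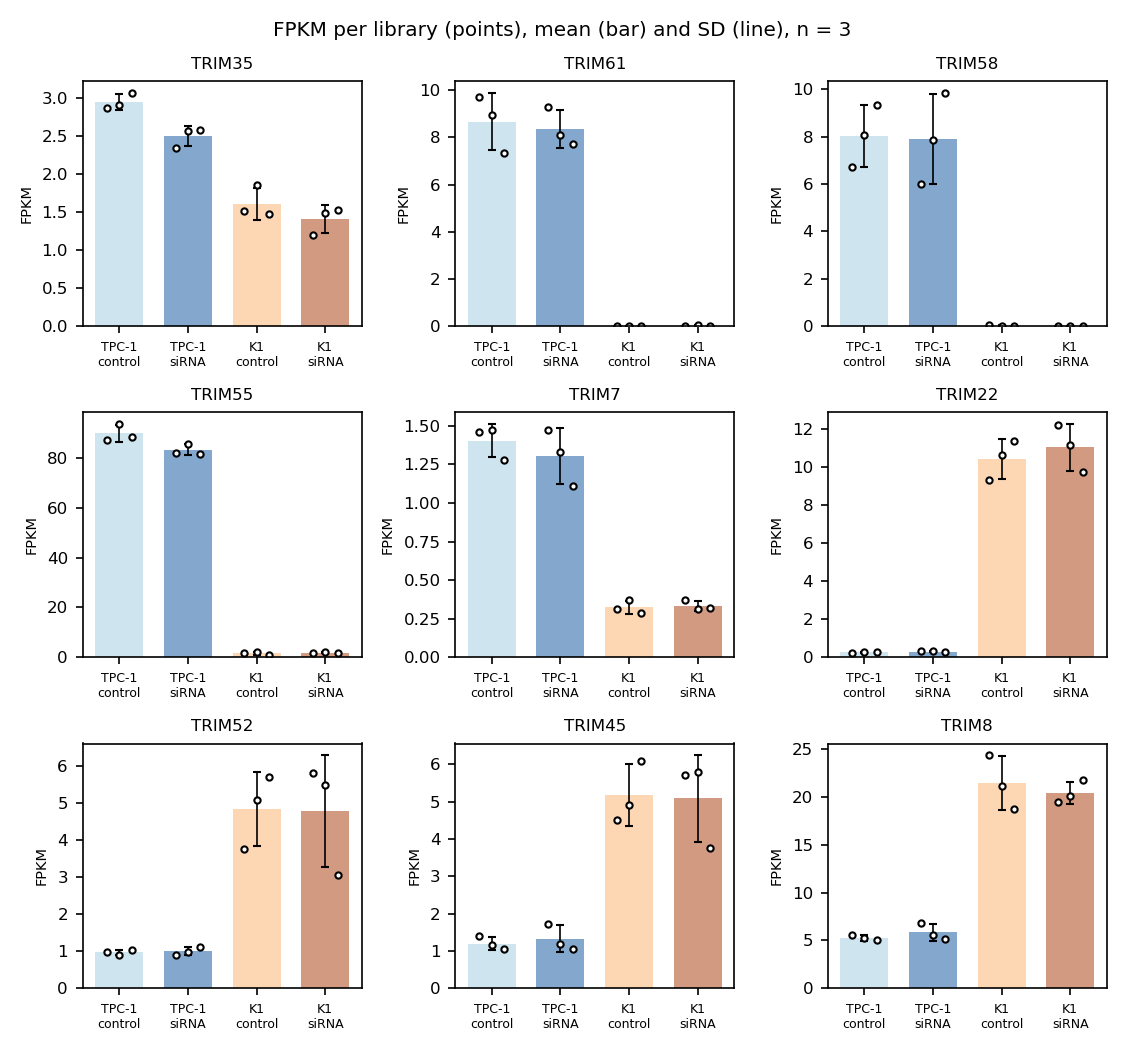
FPKM of TRIM35 and of the 4 members per direction with the largest called differences between control lines among those with at least 1 FPKM in the higher line, 1 panel per gene with its own linear axis from 0; bars are means, lines are SD and points are the 3 libraries of each group. The TRIM35 mean is slightly lower under siRNA in each line, but neither change passed the test and the K1 groups overlap. TRIM61, TRIM58, TRIM55 and TRIM7 are high in TPC-1 and TRIM22, TRIM52, TRIM45 and TRIM8 are high in K1, with or without TRIM35 siRNA.

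By domain class the PRY-SPRY group with a RING finger was the largest: 39 members, of which 21 were tested, 4 were higher and 9 lower in K1 controls. Besides TRIM22 and TRIM41, the higher ones were TRIM4, a RIG-I ligase, at 3.40 against 13.7 FPKM (log2 difference 1.92, SE 0.14), and TRIM62, a regulator of epithelial polarity (0.78, SE 0.19). The lower ones beside TRIM58, TRIM7, TRIM6 and TRIM35 were TRIM26, TRIM21, TRIM38, TRIM69 and TRIM47, with log2 differences from -1.46 to -0.64. Beside TRIM5 and TRIM34, the members TRIM11, TRIM25, TRIM27, TRIM39, TRIM65 and TRIM68 did not pass, with values from -0.35 to 0.31. TRIM68 read 2.42 FPKM in TPC-1 and 2.03 in K1, TRIM65 read 4.93 and 5.55, and TRIM11 read 2.13 and 2.37. Over all genes 35.8% were called higher and 32.1% lower. The class had a median log2 difference of -0.20, beside 0.06 over all genes.

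Of 8 members without any C-terminal domain 5 were tested, and 4 were higher in K1, beside 35.8% of all genes: TRIM8, TRIM52, TRIM56, an antiviral ligase acting on STING signalling (1.92, SE 0.17), and TRIM73, at 0.03 against 0.31 FPKM. TRIM61 was the only lower one. With so few genes these counts describe the members and not the class. TRIM73 has a near-identical copy in TRIM74 and overlaps STAG3L1 and NSUN5P1 on the same strand, so its reads are uncertain. The filamin, MATH and ARF classes have 1 member each, and each was higher in K1. TRIM37, the MATH-domain ligase of mulibrey nanism that limits centriole assembly, read 8.15, 9.80 and 10.86 FPKM in TPC-1 controls and 36.37, 37.93 and 42.55 in K1 controls, a log2 difference of 1.92 (SE 0.14). The ARF-domain member TRIM23, an activator of TBK1-dependent autophagy, differed by 0.42 (SE 0.12).

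In the class named RING-less 4 members were tested, 0 were higher in K1 and 3 were lower. Each member was placed in 1 class only, so members of other classes may lack a RING finger too. TRIM14, an adaptor of mitochondrial antiviral signalling, read 4.74, 6.30 and 7.25 FPKM in TPC-1 controls and 1.71, 1.79 and 1.64 in K1 controls (log2 difference -1.93, SE 0.21). It overlaps NANS on the opposite strand, which had 11054 counts in all against 4748 for TRIM14. A total of 13 tested members, among them TRIM13, TRIM23, TRIM25, TRIM32, TRIM37, TRIM39 and TRIM52, overlap a gene with at least 200 counts, and reads of such pairs could not be told apart where the strandedness is unknown. TRIM16, which serves the clearance of damaged lysosomes, and its partial copy TRIM16L were lower by -1.10 (SE 0.14) and -1.18 (SE 0.15); reads shared between these copies may have been split between them. TRIM44, which carries a ubiquitin-protease-type zinc finger, did not pass (0.23, SE 0.18). Of the 2 members anchored in membranes, TRIM13 of the endoplasmic reticulum was higher in K1 (0.68, SE 0.12) and TRIM59 lower (-1.51, SE 0.13). TRIM59 overlaps the abundant SMC4 on the opposite strand, and SMC4 had 78583 counts in all against 6430 for TRIM59.

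The NHL class went both ways. TRIM3, a brain-enriched ligase, was higher in K1 (1.10, SE 0.19), and TRIM32, mutated in a limb-girdle muscular dystrophy, was lower (-0.65, SE 0.12). The stem-cell regulator TRIM71 was lower too, at 0.113 against 0.0133 FPKM and 140 counts over all libraries. TRIM2, a neurofilament ligase, did not pass (0.08, SE 0.12). Of the COS-FN3-SPRY genes, TRIM36 was higher (0.79, SE 0.14) and TRIM46, an organiser of axonal microtubules, lower at a mean of 0.357 against 0.0667 FPKM. Of the other genes of that group, TRIM9 was not called in controls and TRIM67 was not tested.

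Of the 4 members of the PHD-bromodomain class, 1 was higher, 1 lower and 2 were not called. TRIM66 was higher in K1, at 0.54 against 1.98 FPKM (log2 difference 1.76, SE 0.30). TRIM28 was lower by -0.38 (SE 0.12, adjusted p = 0.0108, edgeR). Its FPKM was 28.62, 33.14 and 30.78 in TPC-1 controls and 26.70, 25.18 and 24.12 in K1 controls, groups that did not overlap. The TRIM28 call was lost without TPC-1 control replicate 2 (-0.33, adjusted p = 0.0525), without K1 control replicate 3 (-0.32, adjusted p = 0.0577) and without the filter on low counts (-0.36, adjusted p = 0.0576), all in edgeR.

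For the RET fusion partners no difference between the lines passed the test. TRIM24, a histone reader and nuclear receptor cofactor, was at 5.52 ± 0.88 FPKM in TPC-1 controls and 6.53 ± 0.42 in K1 controls (SD, n = 3). TRIM27 was at 7.14 ± 0.51 and 7.15 ± 0.39, and TRIM33, a partner of SMAD proteins, at 9.25 ± 1.30 and 8.57 ± 1.08. Of these 3 members 0 were called in edgeR, also without adjustment. The 95% intervals of the log2 differences ran from -0.15 to 0.44 for TRIM24, from -0.34 to 0.15 for TRIM27 and from -0.53 to 0.10 for TRIM33, so a difference of 2-fold lies outside each. TRIM35 siRNA called 0 of the 3 in either line.

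The 10 interferon-inducible members did not move as a block between the lines. In K1 controls 2 were higher (TRIM22 and TRIM56), 5 were lower (TRIM14, TRIM21, TRIM26, TRIM38 and TRIM69) and 3 were not called (TRIM5, TRIM25 and TRIM34), beside 35.8% higher and 32.1% lower over all genes. TRIM26, a regulator of IRF3, read 9.65, 9.87 and 9.88 FPKM in TPC-1 controls against 4.23, 3.63 and 3.49 in K1 controls (log2 difference -1.46, SE 0.14). TRIM21, the cytosolic antibody receptor, read 8.68, 9.20 and 8.31 against 4.96, 5.36 and 4.70 (-0.90, SE 0.18). TRIM38, which restrains inflammatory signalling, differed by -0.74 (SE 0.15) and TRIM69 by -0.73 (SE 0.17). The control groups of the lines did not overlap in TRIM26, TRIM21, TRIM38 or TRIM69. The share of all genes without overlap between the lines is not given here. Of the 5 genes with the GAAANNGAAA motif printed above, TRIM14, TRIM26 and TRIM69 were lower and TRIM5 and TRIM34 not called. TRIM25, which ubiquitinates RIG-I, read 7.18 FPKM in TPC-1 and 6.71 in K1 (-0.20, SE 0.15).

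Other genes of the interferon pathway were mixed as well. Of 27 tested, 15 were higher and 8 lower in K1 controls, beside 35.8% and 32.1% of all genes. The antiviral GTPase gene MX1 was higher, at 0.097 in TPC-1 against 1.44 FPKM in K1 (log2 difference 3.81, SE 0.18), whereas IFI44 was lower, at 32.9 against 3.86 (-3.19, SE 0.16), and so was IFIT2, at 5.17 against 1.06 (-2.39, SE 0.14). Under TRIM35 siRNA 0 of the 27 were called in either line in edgeR.

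**Figure D4:**
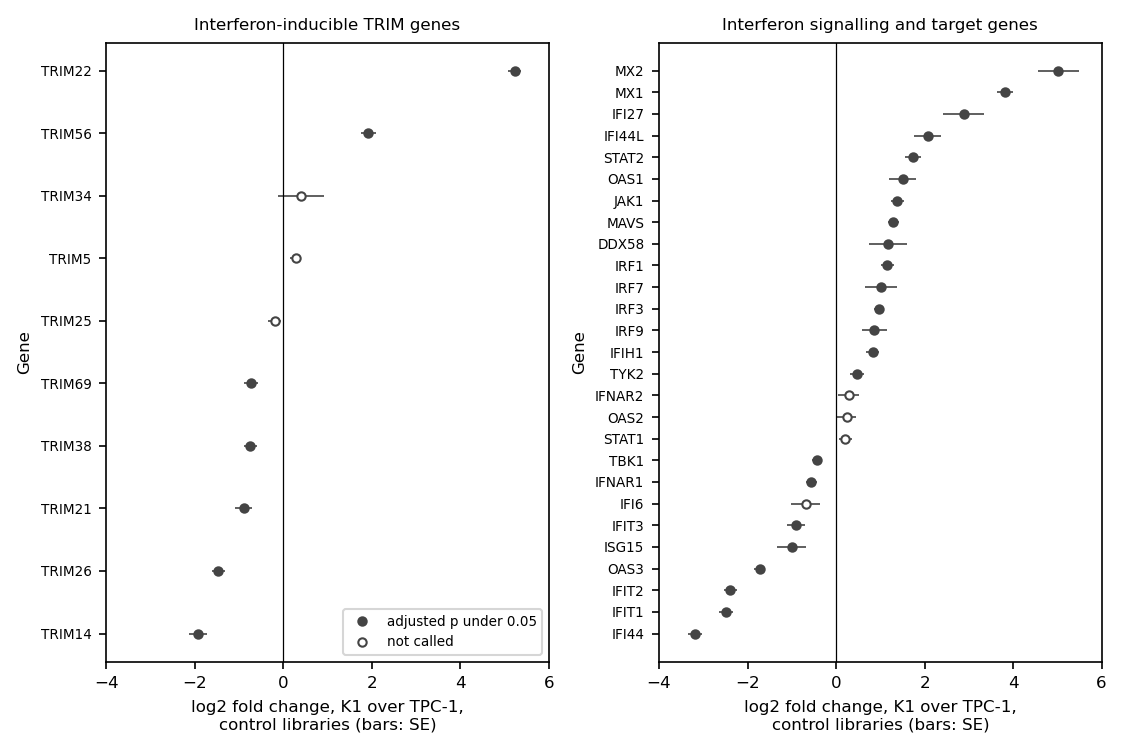
Log2 fold change of K1 over TPC-1 in control libraries, with SE, for the 10 interferon-inducible TRIM genes (left) and 27 interferon signalling and target genes (right); filled points passed an adjusted p under 0.05. In both panels called genes stand on both sides of 0, from TRIM14 at -1.93 to TRIM22 at 5.23 on the left and from IFI44 at -3.19 to MX2 at 5.02 on the right.

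The partners of the family were compared from lists that were chosen with earlier results of these data known. Of 16 ubiquitin, E1 and E2 genes, all tested, 0 were higher and 9 lower in K1 controls, beside 35.8% and 32.1% of all genes. UBE2K was lower by -0.88 (SE 0.12), UBE2D4 by -1.21 (SE 0.19) and UBE2N, the enzyme of K63-linked chains, by -1.07 (SE 0.17). UBE2D1 and UBE2D2, common E2 enzymes of TRIM ligases, were not called (-0.17, SE 0.13, and -0.01, SE 0.17). Of 12 TRIM-like family genes under other names 8 were tested, 5 were higher and 2 lower, beside the same shares. FSD1 was lower (-2.79, SE 0.23), and MID2, a microtubule-bound COS ligase, was higher (0.79, SE 0.15), as was MEFV, the pyrin gene, at a low level (2.62, SE 0.65). Of 4 reported partners of TRIM35, PKM and TRAF6 were lower in K1 (-0.87, SE 0.18, and -0.55, SE 0.15), IRF7 was higher (1.01, SE 0.35) and TRAF3 was not called. IRF7 was low, at 0.63 FPKM in TPC-1 controls and 1.34 in K1 controls. In the TRIM35 siRNA libraries (0.867 and 1.31) its difference between the lines was not called.

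TRIM35 siRNA changed no member past the test. In TPC-1 0 of 47 were called in edgeR, beside 0.00% of all genes, and 0 members had an unadjusted p under 0.05, beside 1.93% of all genes. In K1 the same counts were 0 and 0, beside 0.00% and 0.78%. The average over both lines and the difference between lines called 0 members each, beside 0.00% of all genes, and 0 members had an unadjusted p under 0.05, beside 1.59% and 1.73%. DESeq2 and limma also called 0 members in each of these comparisons. The members' median log2 change was 0.00 in TPC-1 and -0.01 in K1, beside 0.00 for all genes in both. In TPC-1 24 members lay above 0 and 23 below; in K1 23 lay above and 24 below.

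The intervals limit what could have been missed between these siRNA and control libraries. They do not limit what a larger loss of TRIM35 would do. For 44 of 47 members in TPC-1 and 41 of 47 in K1 the 95% interval lay within 2-fold in both directions, beside 71.3% and 76.4% of all genes. Every member with at least 1 FPKM in a line was among them, 37 in TPC-1 and 39 in K1. In TPC-1 the outermost limits of these were -0.64 (TRIM14, 1.56-fold lower) and 0.57 (TRIM45, 1.48-fold higher), and in K1 -0.60 (TRIM47, 1.52-fold lower) and 0.71 (TRIM66, 1.64-fold higher). The members with wider intervals were read at few counts: TRIM34, TRIM71 and TRIM73 in both lines, and TRIM46, TRIM58 and TRIM61 in K1.

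**Figure D5:**
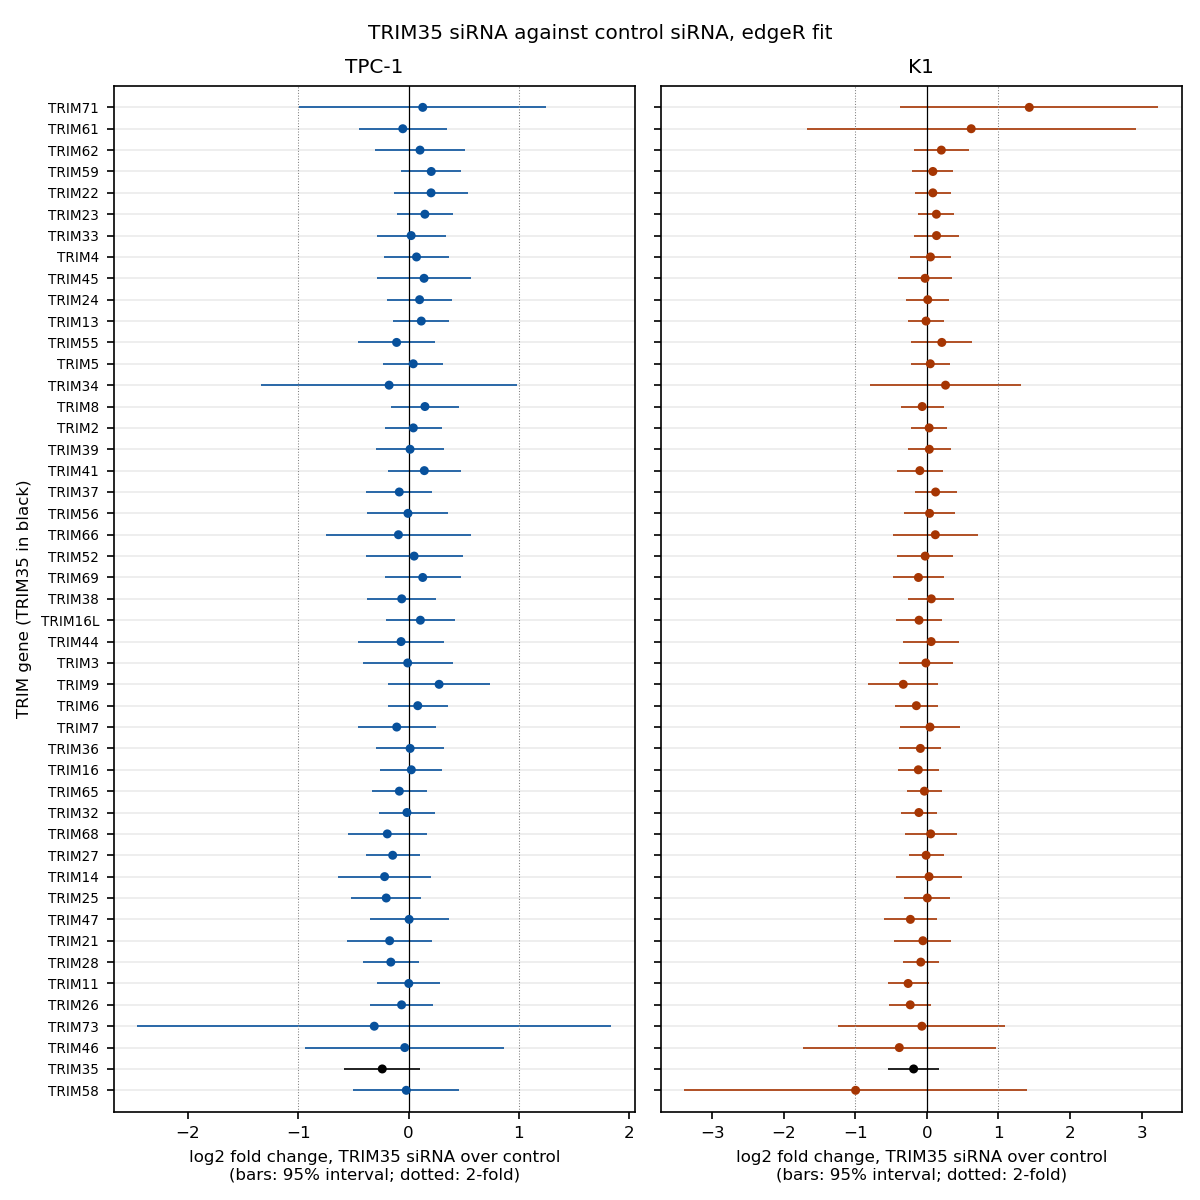
Log2 fold change of TRIM35 siRNA over control siRNA for the 47 tested TRIM genes in edgeR, TPC-1 on the left and K1 on the right, with 95% intervals and dotted lines at 2-fold; TRIM35 is in black and the horizontal scales differ. All intervals cross 0, and those of TRIM71, TRIM73, TRIM34 and, in K1, TRIM58, TRIM61 and TRIM46 reach past the dotted lines.

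Within that narrow spread TRIM35 itself had the lowest log2 change of the 37 expressed members in TPC-1 (-0.24, SE 0.16) and the place 4 from the lowest of 39 in K1 (-0.19). The 2 groups of TPC-1 libraries did not overlap in 3 members, TRIM21, TRIM35 and TRIM55, all lower under siRNA, beside 2.06% of all genes lower without overlap; 0 were higher, beside 2.53%. In K1 TRIM11, TRIM16 and TRIM26 were lower without overlap, beside 2.85% of all genes, and TRIM23 was higher, beside 1.89%. No member was on both lists.

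The members other than TRIM35 with the smallest p were described in each line. In TPC-1 these were TRIM59, TRIM25 and TRIM28. TRIM59 read 5.24, 4.61 and 4.60 FPKM in controls and 6.17, 5.39 and 5.11 under siRNA (log2 change 0.21, SE 0.13). TRIM25 read 6.72, 6.60 and 8.21 against 5.77, 5.19 and 7.77 (-0.20, SE 0.15), and TRIM28 read 28.62, 33.14 and 30.78 against 28.07, 25.52 and 29.24 (-0.16, SE 0.12). The groups overlapped in all 3. In K1 TRIM11, a PRY-SPRY ligase, read 2.58, 2.27 and 2.27 against 2.17, 1.89 and 1.88 (-0.26, SE 0.13, unadjusted p = 0.0694, edgeR). TRIM26 read 4.23, 3.63 and 3.49 against 3.24, 3.30 and 3.12 (-0.23, SE 0.14). Both were lower in each siRNA library than in any control library. TRIM71 read 0.02, 0.02 and 0.00 against 0.02, 0.02 and 0.05 FPKM, at a few counts per library (1.43, SE 0.85). All these values had an adjusted p of 1.00 in edgeR.

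The lists around the family gave the same count under TRIM35 siRNA: 0 of the 16 ubiquitin, E1 and E2 genes, 0 of the 8 tested TRIM-like genes and 0 of the 4 reported TRIM35 partners were called in either line in edgeR. PKM read 315.9 FPKM in TPC-1 controls and 315.6 under siRNA, and 184.6 against 172.0 in K1.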

How the data were processed

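RNA-seq was analysed from 12 libraries of TPC-1 and K1 cells, 3 per group. The submitters' processing notes name cutadapt 1.9.1 and the build hg38; the aligner, counter, annotation release and strandedness were not given in the sources used here. Values came from 1 deposited table that holds, per gene, whole-number counts and FPKM. The deposited FPKM equal the counts divided by exonic size and library total. Tests were run on the deposited counts in edgeR 4.0.16 under R 4.3.3 (TMM, filterByExpr, quasi-likelihood fit with 1 mean per group over all 12 libraries, 8 residual degrees of freedom, Benjamini-Hochberg over 17447 genes, call under 0.05). The SE of a log2 fold change is its size over the square root of F. The fit was tested on simulated data.

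Values in every library are given for TRIM35, for the 4 members with the largest difference per direction called between control lines with at least 1 FPKM in the higher group, and for the 3 members with the smallest p in each knockdown. A few further members are shown per library, chosen after their values were seen: TRIM9, TRIM14, TRIM21 and TRIM37. The members and lists were chosen with earlier results of these data known. Alternatives were DESeq2 1.42.0, limma 3.58.1 on log2(FPKM + 0.1) or log2(FPKM + 1), other scalings, no low-count filter, a replicate block, only the groups compared, and leaving out each library. Same-numbered libraries did not deviate together in every pair, so the numbers were not taken as pairs.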

Additional observations from a re-analysis of the deposited data

How the results depend on the processing

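The numbers of members called lay within 1.5 times of the reported ones under every alternative run. K1 was higher in 15 to 17 and lower in 17 to 19 members among controls over the 9 alternatives, and higher in 15 to 18 and lower in 17 to 20 under TRIM35 siRNA; leaving out single libraries gave 15 to 16 and 18 to 20, and 15 to 18 and 19 to 21. With the replicate block the counts were 15 higher and 19 lower among controls and 16 and 20 under siRNA. The correlation of same-numbered control and siRNA libraries was 0.379, 0.086 and 0.406 in TPC-1 and -0.491, 0.086 and -0.526 in K1, so the numbers were not used as pairs. In K1, control replicate 1 correlated with siRNA replicate 3 at 0.577, and control replicate 3 with siRNA replicate 1 at 0.453. The other differently numbered K1 pairs lay between -0.358 and 0.32. The source of this shared variation was not tested. The siRNA comparisons called 0 members under each alternative and each left-out library. TRIM5 was called higher in K1 controls by DESeq2 (0.31, adjusted p = 0.0449), by limma on log2(FPKM + 0.1) (0.38, adjusted p = 0.00902) and by edgeR under other scalings, and TRIM39 by the latter and limma; the cause was not tested. Under TRIM35 siRNA the TRIM28 call was lost in edgeR with RLE scaling (adjusted p = 0.0513), library size alone (0.0717), no low-count filter (0.115), only the groups compared (0.0755), without TPC-1 siRNA replicate 3 (0.0605) and without K1 siRNA replicate 1 (0.145) or 2 (0.0857), and in limma without the filter (0.0653), always with a negative difference. Over all genes, the siRNA comparisons called 0 in edgeR as reported. Without the filter edgeR called 2 higher in TPC-1, 1 higher and 1 lower in K1, 4 lower in the difference and 1 higher in the average. DESeq2 called 1 higher in TPC-1 and 2 lower in the difference. Limma without the filter called 5 higher in TPC-1, 16 higher and 17 lower in K1, 3 higher and 9 lower in the difference, and 4 higher and 6 lower in the average. Leaving out TPC-1 siRNA replicate 3 or K1 control replicate 3 gave 1 lower call in the difference. Scaling by library size alone moved the median of all genes between control lines from 0.06 to 0.16. The difference of the TRIM35 effects, K1 minus TPC-1, was 0.05 and turned to -0.029 without TPC-1 siRNA replicate 1, -0.028 without K1 control replicate 3 and -0.068 without K1 siRNA replicate 3, within a range of -0.068 to 0.181 over the libraries left out; the cause was not tested, and none passed the test. TRIM35's exact p in TPC-1 was 0.2 without TPC-1 control replicate 3 and ranged from 0.3 to 0.9 in K1. Depth limits TRIM34, TRIM46, TRIM71 and TRIM73, with 140 to 231 counts each in all.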
